A study of Mus musculus with 2 samples.

Results

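Ddc, Grb10, Cobl, Fignl1 and Ikzf1 are 5 genes that lie side by side on mouse chromosome 11, and Ddc and Grb10 among them are known imprinted genes. They were picked by symbol from a table of 29383 genes, in which each had 1 row and reads in both libraries. RNA was sequenced from heart apex of E12.5 mouse embryos, and each genotype is 1 library in which 8 hearts were pooled. The mutant was Nkx2-5cre, Ezh2f/f, in which both copies of Ezh2 are floxed, and the control was Nkx2-5cre, Ezh2f/+, in which 1 copy is. Both groups thus carried Cre recombinase driven by Nkx2-5, a transcription factor gene of early heart muscle, and the control was itself heterozygous for the floxed allele. The labels call the material cardiomyocytes and name no sort. Ezh2 is the catalytic subunit of Polycomb repressive complex 2, which methylates histone H3 on lysine 27, and the comparison addresses how heart transcripts differ when both Ezh2 copies are floxed rather than 1.

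Imprinted genes are expressed mainly from the copy inherited from a given parent. Grb10 is transcribed from the maternal copy in most mouse tissues and from the paternal copy in neurons, and in the developing mouse heart a transcript form of its neighbour Ddc is made from the paternal copy. The other genes of the neighbourhood flank this pair. The deposited reads are not split by parental copy, so every value below sums both.

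The libraries held 14122579 reads in the mutant and 13944617 in the heterozygote. With 1 library per genotype no difference has a replicate check, and each interval covers, at 95%, the error of counting reads and nothing else, as the labels name no molecular identifiers. Levels are CPM, the reads of a gene per 1e6 reads of its library after scaling. Ezh2 itself had 319 reads in the mutant and 493 in the heterozygote, a ratio of 0.601 (0.521 to 0.694), counted over the whole gene and not over the floxed exons. All 17 genes of a cardiomyocyte marker list were detected at 1 CPM or more, and they summed to 57415 CPM in the mutant and 57418 CPM in the heterozygote. Single members differed more, with log2 ratios of mutant over heterozygote, with 1 CPM added, from -0.76 to 0.74. Of them 9 were above 0 and 8 below. Their median was 0.14, 0.23 under library totals and 0.005 after a trend on GC content and length was removed.

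Ddc and Grb10 each have 2 annotated starts in RefSeq, and these are shown because the reads of a gene model sum the transcripts of both. The sequences below are the RefSeq promoter windows of build GRCm38.p6, minus strand, from 250 bases before to 50 bases after the start, written 5′ to 3′ with each CG dinucleotide in capitals. The upstream Ddc start lies in chr11:11898095-11898394, the inner Ddc start in chr11:11890359-11890658, the upstream Grb10 start in chr11:12037371-12037670 and the inner Grb10 start in chr11:12027922-12028221.
Ddc upstream start: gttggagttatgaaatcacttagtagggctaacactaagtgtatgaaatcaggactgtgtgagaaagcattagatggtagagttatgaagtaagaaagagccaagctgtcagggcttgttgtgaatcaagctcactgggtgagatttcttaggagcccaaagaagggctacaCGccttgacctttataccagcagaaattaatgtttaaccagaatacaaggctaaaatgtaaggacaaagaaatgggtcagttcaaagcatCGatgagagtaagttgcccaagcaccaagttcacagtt
Ddc inner start: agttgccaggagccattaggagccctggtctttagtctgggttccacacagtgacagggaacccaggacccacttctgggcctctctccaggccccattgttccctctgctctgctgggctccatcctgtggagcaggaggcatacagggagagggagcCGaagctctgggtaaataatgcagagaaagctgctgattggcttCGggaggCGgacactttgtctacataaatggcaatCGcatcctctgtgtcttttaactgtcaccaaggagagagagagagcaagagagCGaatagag
Grb10 upstream start: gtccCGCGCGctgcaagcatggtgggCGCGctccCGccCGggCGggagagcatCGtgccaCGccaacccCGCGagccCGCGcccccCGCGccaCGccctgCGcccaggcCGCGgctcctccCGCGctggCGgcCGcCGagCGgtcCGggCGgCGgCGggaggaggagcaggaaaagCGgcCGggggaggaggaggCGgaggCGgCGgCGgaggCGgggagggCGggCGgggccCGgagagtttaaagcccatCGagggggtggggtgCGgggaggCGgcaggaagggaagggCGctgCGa
Grb10 inner start: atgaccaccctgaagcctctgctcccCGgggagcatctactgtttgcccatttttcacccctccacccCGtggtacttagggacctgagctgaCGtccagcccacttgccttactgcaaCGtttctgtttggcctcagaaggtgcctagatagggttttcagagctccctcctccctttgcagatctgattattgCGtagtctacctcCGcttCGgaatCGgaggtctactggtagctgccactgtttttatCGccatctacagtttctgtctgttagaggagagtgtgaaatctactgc

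CG dinucleotides, the sites of DNA methylation in mammals, were below the median number at both starts of Ddc. The upstream Ddc window held 2 and the inner Ddc window 5, against a median of 7 over 32851 RefSeq promoter windows of the same length. The quartiles of those windows were 3 and 20, so the inner Ddc window lay between them and the upstream Ddc window below. The upstream Grb10 window held 45, more than 98.1% of those windows, while the inner Grb10 window held 9. The 2 starts of Cobl held 42 and 0, those of Ikzf1 held 52 and 2, and the 1 start of Fignl1 held 34. This is a description of the letters in these windows and says nothing about methylation in these hearts. The starts of Ddc are 7.74 kb apart, and the deposited Ddc model spans 83998 bases, more than the 76308 bases from the inner start to the end of the RefSeq gene. Reads from either start would therefore fall in the same model, and the counts cannot say which of the transcripts was lower.

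Ddc encodes aromatic L-amino acid decarboxylase, the enzyme that turns L-DOPA into dopamine and 5-hydroxytryptophan into serotonin. The Ddc model, on the minus strand of chromosome 11 from 11714106 to 11798103 in the coordinates of the files, had 510 reads in the mutant and 1368 in the heterozygote. Its level was 35.0 CPM in the mutant and 101 CPM in the heterozygote. The mutant library held 0.346 (0.312 to 0.384) of the heterozygote level of Ddc, which is 2.89-fold lower (2.61 to 3.20). The authors' deposited table gives a heterozygote-to-mutant fold of 2.72 for Ddc, on unscaled CPM. Ddc was included in the set with this value known, so its low ratio is a description. In bulk tissue, fewer cells that express a gene and less RNA per cell cannot be told apart.

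Grb10 encodes an adaptor protein that binds the insulin and IGF1 receptors and restrains their signalling and fetal growth. The Grb10 model, on the minus strand from 11830511 to 11937358, ends 32.4 kb upstream of the start of Ddc. The starts of the Grb10 and Ddc models are 139 kb apart. Grb10 had 23970 reads in the mutant and 22759 in the heterozygote. Its level was 1646 CPM in the mutant and 1682 CPM in the heterozygote, a ratio of 0.979 (0.961 to 0.997). The direction of this small difference depended on the scaling, since the ratio was 1.04 when libraries were scaled by their totals. By mean CPM, not corrected for transcript length, Grb10 ranked at 43 among the 16185 genes that reached 1 CPM. Ddc ranked at 2680.

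**Figure D1:**
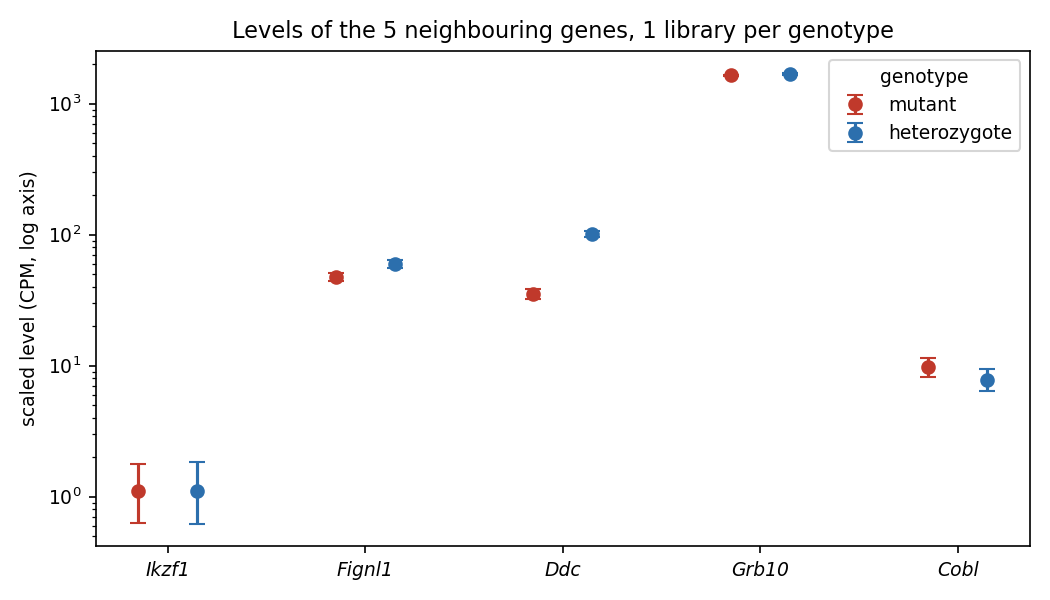
Level of each of the 5 genes in CPM on a log axis, in order along the chromosome, with the mutant in red and the heterozygote in blue; bars are 95% Poisson intervals of the reads. Ddc stands at 35.0 CPM in the mutant and 101 CPM in the heterozygote, while Grb10 is at 1646 CPM in the mutant and 1682 CPM in the heterozygote.

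Fignl1, the gene 5.17 kb on the other side of Ddc, encodes fidgetin-like 1, an AAA ATPase that acts in homologous recombination. It had 691 reads in the mutant and 803 in the heterozygote, with levels of 47.5 CPM in the mutant and 59.4 CPM in the heterozygote. The ratio was 0.800 (0.721 to 0.886). Fignl1 transcripts are low in GC, at 41.7% against 48.9% for Ddc and 48.5% for Grb10. On a log2 scale with 1 CPM added, Fignl1 was at -0.32, and at -0.15 after a trend on GC content and length was removed, whereas Ddc was at -1.50 and then at -1.42.

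Cobl and Ikzf1 make up the outer flanks. Cobl, which encodes the actin nucleator cordon-bleu, had 142 reads in the mutant and 105 in the heterozygote. Its levels were 9.75 CPM in the mutant and 7.76 CPM in the heterozygote, a ratio of 1.26 (0.970 to 1.63) whose interval includes 1. Ikzf1 encodes Ikaros, a zinc finger transcription factor of lymphoid development. It had 16 reads in the mutant and 15 in the heterozygote, a ratio of 0.991 (0.459 to 2.15), an interval that does not exclude a 2-fold difference in either direction.

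Of the 5 genes, all reached 1 CPM in a library, 1 was at least 2-fold lower in the mutant on the log2 scale with 1 CPM added, and 0 were at least 2-fold higher. Across all genes at that level, 28 of 16185 (0.173%) were at least 2-fold lower and 98 (0.605%) at least 2-fold higher. Under the main scaling, TMM, the counting intervals of 3 of the 5 genes lay below a ratio of 1, as did those of 3096 genes (19.1%) in all. Grb10 was 1 of the 3, and its ratio was 1.04 under library totals, so the count of 3 depends on the scaling. These counts use the comparison in which the set was chosen, so nothing is read from them. Relative to its neighbours in the same libraries, where scaling cancels, the ratio of Ddc was 0.354 (0.319 to 0.393) of that of Grb10. It was 0.433 (0.374 to 0.502) of that of Fignl1, 0.276 (0.208 to 0.365) of that of Cobl and 0.350 (0.160 to 0.761) of that of Ikzf1.

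**Figure D2:**
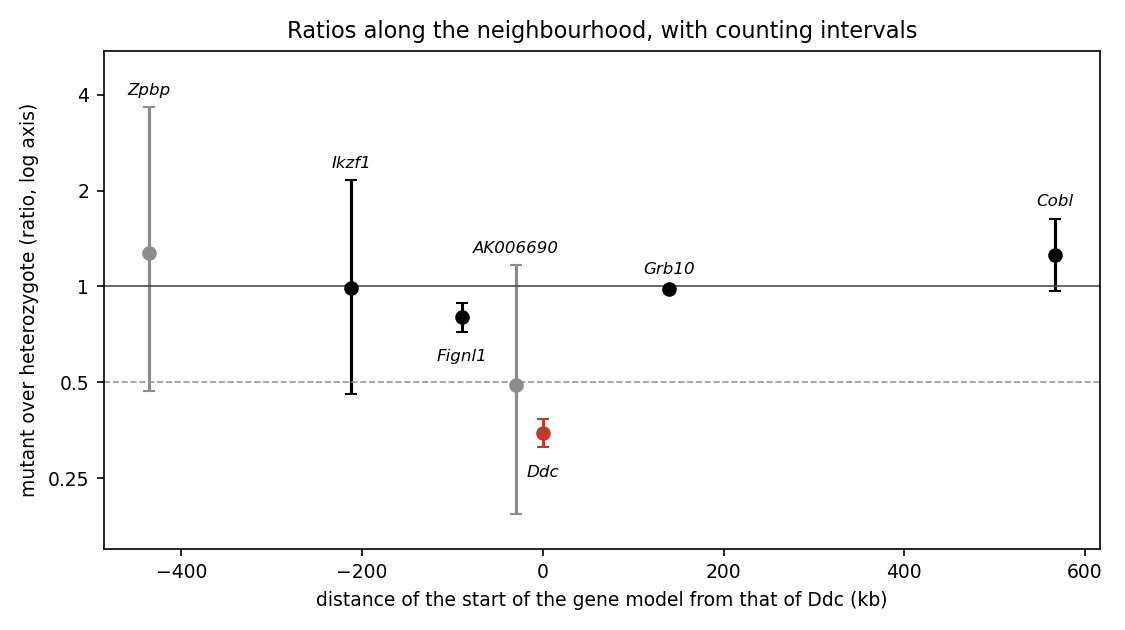
Ratio of mutant to heterozygote on a log axis, against the distance in kb from the start of the Ddc model, for the 7 gene models of the neighbourhood with at least 10 reads in a library; bars are 95% counting intervals, the solid line marks 1 and the dashed line 0.5. Ddc is at 0.346, Grb10 at 0.979, Fignl1 at 0.800, and the wide bars of Zpbp, Ikzf1 and AK006690 include 1.

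The neighbourhood was sparse beyond these genes. Within 2 Mb of the outer ends of the set the table lists 13 gene models, of which 4 were without reads in both libraries (a count of 0 allows up to 3) and 7 had at least 10 reads in a library. The models with that many reads, beside the 5 genes, were Zpbp, a sperm head gene, with 11 reads in the mutant and 8 in the heterozygote, and AK006690, a testis clone named by accession that lies inside Ddc on the opposite strand. AK006690 had 9 reads in the mutant and 17 in the heterozygote, a ratio of 0.492 (0.193 to 1.17). Whether counting used strand is not given in the sources here, so reads of AK006690 and Ddc cannot be told apart, and their number is small beside that of Ddc. Within 5 Mb, 25 genes reached 1 CPM, and with 1 CPM added Ddc was the only one of them at least 2-fold apart. The other 24 had log2 ratios between -0.70 and 0.59. On the whole of chromosome 11, 2 of 1327 such genes were at least 2-fold lower, Ddc and Dhrs7c, and 9 were at least 2-fold higher.

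Set beside genes of like abundance, Ddc stood at the edge of the range. Among 2487 genes with a mean level within 1.5-fold of its own, itself included, none had a lower log2 ratio, and 95% of them lay between -0.44 and 0.39. Of all 16185 genes 6 had a lower log2 ratio than Ddc. Because Ddc was included with its low ratio in this comparison known, its place here and in the lists below is a description. Nothing is read from it. Fignl1 had 237 of 2947 genes of its level below it, Cobl 2085 of 2540, Ikzf1 512 of 1237 and Grb10 25 of 39. Among the 28 genes at least 2-fold lower, Ddc ranked at 4 by its mutant level and at 4 by its heterozygote level. The genes above it by heterozygote level were the globin gene Hbb-b1, the myoglobin gene Mb and the muscle creatine kinase gene Ckm, with log2 ratios of -1.05, -1.13 and -1.13.

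**Figure D3:**
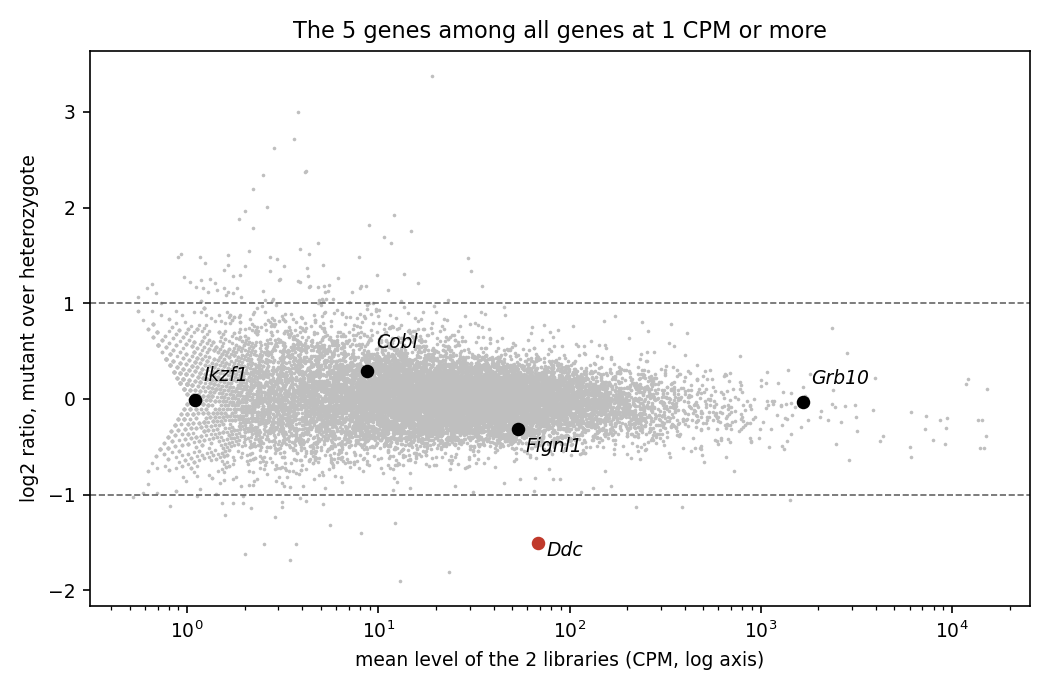
Log2 ratio of mutant over heterozygote, with 1 CPM added to each, against the mean level in CPM on a log axis for the 16185 genes that reached 1 CPM in either library; dashed lines mark 2-fold. Ddc, in red at -1.50, lies below the band of genes of its level, and Grb10, Fignl1, Cobl and Ikzf1, in black, lie inside 2-fold.

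Levels of the 5 genes were set against each other per kilobase of the longest GENCODE transcript. Ranks by level elsewhere use CPM, not corrected for transcript length. Grb10 had 325 CPM per kb in the mutant and 332 CPM per kb in the heterozygote. Ddc had 17.4 CPM per kb in the mutant and 50.1 in the heterozygote. Fignl1 followed with 16.0 CPM per kb in the mutant and 20.0 in the heterozygote, Cobl with 1.74 in the mutant and 1.38 in the heterozygote, and Ikzf1 with 0.213 in the mutant and 0.215 in the heterozygote. The order was the same in both libraries, yet in the mutant the interval of Ddc (15.9 to 18.9) overlapped that of Fignl1 (14.8 to 17.2). In the heterozygote those intervals, 47.5 to 52.8 for Ddc and 18.6 to 21.4 for Fignl1, did not overlap. The level per kb of Grb10 was 18.7 times that of Ddc in the mutant and 6.63 times that in the heterozygote. Grb10 made up 94.6% of the reads of the 5 genes in the mutant and 90.9% in the heterozygote, and Ddc 2.01% in the mutant and 5.46% in the heterozygote.

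Among genes named by a RefSeq symbol or synonym, those nearest to Ddc in both libraries, by distance in log2 level, were Cav1, Kctd12, Cox8b, Ctgf and Glod4. Cav1, which encodes caveolin 1, was the nearest and had 43.8 CPM in the mutant and 86.5 CPM in the heterozygote. The distances of these 5 genes ran from 0.384 to 0.667 on the log2 scale, so that none of the genes compared shared both levels of Ddc closely. Grb10 had closer company in Lbh, Atp5b, Hsp90ab1, Myl9 and Tnnc1, at distances of 0.0587 to 0.174. Likeness over 2 libraries is a description of level and ratio only.

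Ddc stood alone at its ratio among genes that make or handle aromatic amines. Of 25 genes of this list in the table, 16 reached 1 CPM. Ddc was the 1 at least 2-fold lower and 0 were at least 2-fold higher, the others lying between -0.53 and 0.25, with a median log2 ratio of -0.10, against -0.008 over all genes tested. The enzymes that make the substrates of Ddc were below 1 CPM. Th, tyrosine hydroxylase, which makes L-DOPA, had 11 reads in the mutant and 3 in the heterozygote, and the tryptophan hydroxylase genes Tph1 and Tph2 had 0 reads in both libraries. Dbh, which converts dopamine to noradrenaline, had 3 reads in the mutant and 4 in the heterozygote. Slc18a2, the vesicular monoamine transporter, had 108 reads in the mutant and 93 in the heterozygote, a ratio of 1.08 (0.810 to 1.44). The degrading enzyme gene Maoa had a ratio of 0.796 (0.636 to 0.996). Hdc, the histidine decarboxylase related to Ddc, had 32 reads in the mutant and 49 in the heterozygote (0.607, 0.376 to 0.967). Pdxk, a kinase gene in the supply of the pyridoxal phosphate cofactor of Ddc, had a ratio of 1.07 (0.831 to 1.38). These genes were chosen with their values in view.

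Marker lists of cells that could carry Ddc were read beside it. Of 16 genes of autonomic neurons and chromaffin cells, 7 reached 1 CPM, and Insm1 was among those with 0 reads in both libraries. The list summed to 178 CPM in the mutant and 169 CPM in the heterozygote, of which Hand2, also a cardiac gene, gave 158 CPM in the mutant and 152 CPM in the heterozygote. Trabecular myocardium genes, a list of 14, had 13 members at 1 CPM or more, 8 of them below 0 and 0 at least 2-fold apart, with a median log2 ratio of -0.12. They summed to 7589 CPM in the mutant and 8354 CPM in the heterozygote. For comparison, 50.2% of all 16185 genes tested had a log2 ratio below -0.007, that of Ikzf1. Nppa, the atrial natriuretic peptide gene, had a ratio of 0.920 (0.909 to 0.931) and the light chain gene Myl4 0.857 (0.844 to 0.871). The farthest members, chosen with their values in view, were Nppb at 0.530 (0.499 to 0.564) and Ntn1 at 1.56 (1.48 to 1.65). Compact myocardium genes had a median of 0.09, with 7 of the 9 at 1 CPM or more above 0 and 2 below. Their sum went the other way, at 7316 CPM in the mutant and 7733 CPM in the heterozygote. Abundant members weigh most in such a sum, and Tnnt2 of this list is also on the cardiomyocyte list. Under library totals the median was -0.03 for trabecular and 0.18 for compact genes. With the trend on GC content and length removed, it was -0.04 for trabecular and 0.08 for compact genes. The part of these cells in the result for Ddc was not tested.

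**Figure D4:**
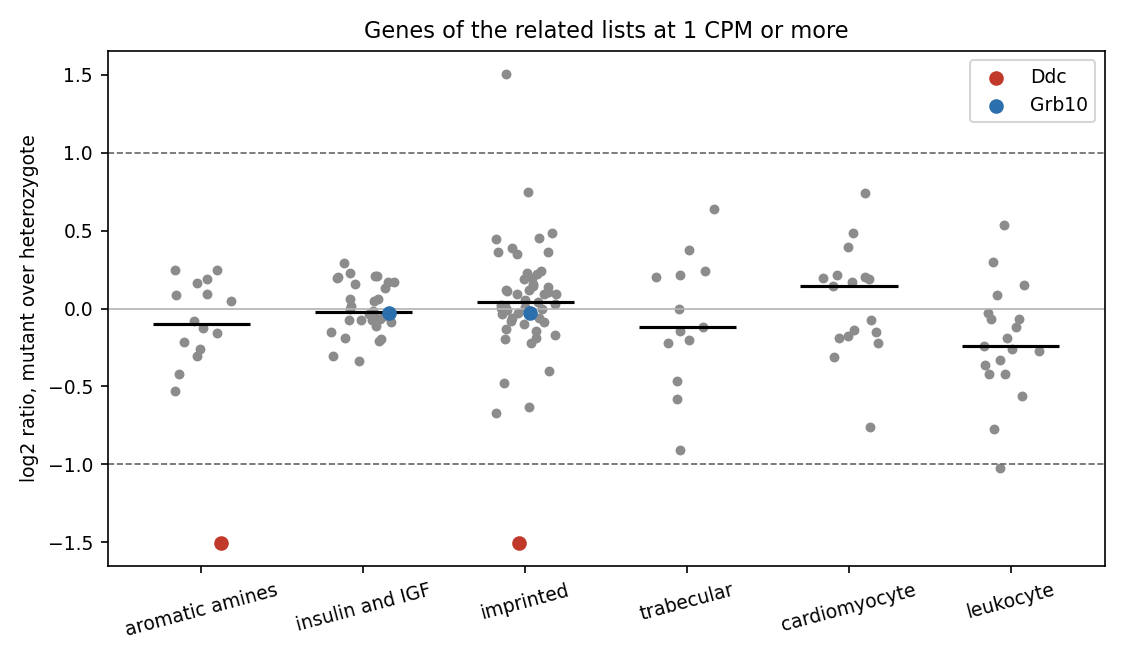
Log2 ratios of mutant over heterozygote, with 1 CPM added, for list members at 1 CPM or more; each grey point is a gene, black bars are medians, and dashed lines mark 2-fold. Ddc, in red at -1.50, lies below every other point of the aromatic amine and imprinted lists, and Grb10, in blue at -0.03, lies near 0.

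Genes of insulin and IGF receptor signalling, where Grb10 acts, differed little. Of 33 genes present, 32 reached 1 CPM, 0 were at least 2-fold apart in either direction, 14 were above 0 and 18 below, and the median log2 ratio was -0.02. The range ran from -0.33 to 0.29. Igf2, the fetal growth factor gene, had a ratio of 1.11 (1.11 to 1.12), and its clearance receptor gene Igf2r 1.14 (1.13 to 1.16). Among genes singled out afterwards, the receptor genes Igf1r and Insr had ratios of 1.16 (1.10 to 1.22) and 1.03 (0.967 to 1.10). The adaptor genes of the same family, Grb14 and Grb7, had ratios of 0.973 (0.858 to 1.10) and 0.782 (0.376 to 1.61), and Nedd4, a ubiquitin ligase that binds Grb10, had 0.952 (0.932 to 0.972).

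Among imprinted genes Ddc had the lowest log2 ratio of the 53 at 1 CPM or more, out of 62 in the table. Mcts2 was next at -0.67. With 1 CPM added, Dlx5, a homeobox gene whose imprinting is disputed, was the 1 gene at least 2-fold higher, with 42 reads in the mutant and 5 in the heterozygote. That count was 2 with 0.1 CPM added, and 0 with 5 CPM added or a filter at 5 CPM. The median of the list was 0.04, and 0.05 without Ddc and Grb10. By mean level Grb10 ranked at 5 among the 53, after H19, Igf2, Igf2r and Mest.

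The families of the flanking genes were near the middle as well. Of 35 actin nucleator genes and Cobl partners at 1 CPM or more, 0 were at least 2-fold apart with 1 CPM added, and the median was 0.11. Lmod1 and Spire2, chosen with their values in view, had plain ratios of 2.50 (1.29 to 5.15) and 2.79 (1.21 to 7.18) on few reads, with 35 and 24 in the mutant against 13 and 8 in the heterozygote. Actr3 and Arpc4 of the Arp2/3 complex had ratios of 0.945 (0.894 to 1.0001) and 1.0 (0.948 to 1.06). Of 22 genes of the fidgetin and katanin ATPases and of homologous recombination, 0 were at least 2-fold apart, and the median was -0.08. Vps4a, an ATPase of the same clade as Fignl1, had a ratio of 1.05 (0.937 to 1.18). Of 13 Ikaros family and lymphoid genes at 1 CPM or more, 0 were 2-fold apart and the median was 0.02. Ikzf5 had a ratio of 0.870 (0.762 to 0.993) and the E protein gene Tcf3 1.15 (1.07 to 1.24), while Cd3e, Pax5, Rag1, Rag2 and Dntt had 0 reads in both libraries.

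Other cell types in the apex were measured beside these values. Of all 16185 genes tested, 50.2% had a log2 ratio below -0.007, that of Ikzf1. Leukocyte markers summed to 111 CPM in the mutant and 135 CPM in the heterozygote, with 15 of 19 below 0. The neutrophil gene S100a9, the 1 member at least 2-fold lower, had 0 reads in the mutant and 14 in the heterozygote. That call was lost with 5 CPM added, with a filter at 5 CPM, and once the trend on GC content and length was removed. Erythroid markers summed to 9342 CPM in the mutant and 13749 CPM in the heterozygote, with 10 of 12 below 0 and Hbb-b1, the 1 member at least 2-fold lower, at a ratio of 0.481 (0.471 to 0.491), a call lost under scaling by library totals and once the trend on GC content and length was removed. Hbb-b1 has near-identical copies that the counting may have split. Pericyte and smooth muscle markers summed to 1668 CPM in the mutant and 1807 CPM in the heterozygote, where Rgs5, a pericyte gene and the 1 member at least 2-fold lower, had 7 reads in the mutant and 48 in the heterozygote, a call lost with 5 CPM added or a filter at 5 CPM. Median log2 ratios were -0.07 for endothelial genes, with Cdh5 at a ratio of 0.929 (0.885 to 0.976) and Npr3 at 0.966 (0.910 to 1.03), and -0.08 for epicardial genes, with Tbx18 at 1.22 (1.09 to 1.37) and Upk3b at 0.934 (0.848 to 1.03). For fibroblast and cushion genes the median was -0.02, with Col1a1 at 1.03 (0.991 to 1.07) and Vim at 0.917 (0.893 to 0.943). The part of these cell types in the results for Ddc and Ikzf1 was not tested.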

How the data were processed

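Total RNA of 2 libraries, 1 per genotype, was sequenced after preparation for full-length transcripts, as the labels' protocols state. The deposited table holds read counts for 29595 gene models, per the file headers. CPM columns by the authors divide by each library's total, and recomputing them from the counts matched to within 4.91e-11. The deposited fold is a ratio with the heterozygote on top, and the deposited p-value, whose test is not named, was not used. Aligner, counting program, strand setting and build are not given in the sources here. On chromosome 1 the files reach 197002909, past the last GRCm38 RefSeq gene end at 195291439, so no GRCm38 coordinates were joined to theirs. Starts in the files count from 0 and were printed with 1 added.

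Rows of 1 symbol were summed. Libraries were scaled by TMM in edgeR 4.0.16 under R 4.3.3 (factors 1.03 for the mutant and 0.970 for the heterozygote). Log2 ratios carry a pseudocount of 1 CPM and genes needed 1 CPM in a library. Ratios are of scaled counts, with exact conditional intervals. The calculation of the intervals was checked on simulated Poisson counts scaled by library totals. That does not test whether counting error alone describes these libraries. Alternatives were library totals, DESeq2 1.42.0 size factors, upper quartile scaling, other pseudocounts and filters, and removal of a trend, quadratic in GC content and in log length of the longest GENCODE M21 transcript. The fit used genes averaging 5 CPM or more, and 13273 (82.0%) of the genes tested had a GC value.

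The 5 genes, the lists and the alternatives were chosen with earlier results of these data known. Genes named are the 5, Ezh2 and neighbours with at least 10 reads. From each list they are the members 2-fold apart or, failing that, the 2 most abundant. This rule was not kept to for the cardiomyocyte, compact myocardium and autonomic lists. Named too are the 5 nearest in level to Ddc and Grb10 among genes with a RefSeq symbol or synonym. Other genes named were chosen with their values in view. Promoter windows were matched by symbol to RefSeq and all 5 genes matched. With 1 library per genotype no test of the genotype was made. Some listed genes are counted in the lists but not reported here by name.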

Additional observations from a re-analysis of the deposited data

How the results depend on the processing

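No paired analysis was possible because each genotype has 1 library. Ddc kept its direction and stayed at least 2-fold lower under every scaling, pseudocount and trend tried, with log2 ratios of -1.53 to -1.41. Grb10 changed sign under library totals, at 0.056 against -0.03. Fignl1 moved to -0.15 once the trend on GC content and length was removed. Cobl and Ikzf1 stayed within their counting intervals under the same alternatives. Over all genes, 312 were at least 2-fold higher and 143 lower with a pseudocount of 0.1 CPM, 14 and 6 with 5 CPM, and 50 and 14 with a filter at 5 CPM, against 98 and 28. Within 2 Mb 1 gene, Ddc, was at least 2-fold lower under each scaling, filter and trend and with 0.1, 1 or 5 CPM added, but 2 were with no pseudocount, an alternative chosen after seeing the data, the other being AK006690 at 0.492. The 1 and 5 Mb windows were run with 1 CPM added only. Of the 2-fold counts of the lists, 245 were unchanged or within 1.5-fold and 11 moved. Most of the unchanged counts were 0 in the main setting and stayed 0, so their number says little about the calls. The moves fell on the higher counts of imprinted genes and actin nucleators, and on the lower counts of the leukocyte, erythroid and pericyte lists. Depth limits Ikzf1, whose 16 reads in the mutant and 15 in the heterozygote leave an interval of 0.459 to 2.15. The spread between animals was not measured.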
